A study of Mus musculus with 265 samples.

Results

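The 2 Fluidigm C1 captures made 24 hours after Ikaros induction were compared with each other, cell by cell and region by region. All single-cell ATAC-seq columns of the deposited matrix whose names mark the 24 h time-point and run 1 (60 cells) or run 2 (72 cells) were taken, which is 132 of the 227 cells. Every cell came from the mouse pre-B line B3, which carries an ERt2-Ikaros fusion, so that the fused Ikaros is held out of the nucleus until 4-hydroxytamoxifen (4OHT) is added. The 24 h cells had received 4OHT, with a repeat dose about midway, and the 0 h cells (48 in run 1 and 47 in run 2) carried the same fusion without it. The labels list 75 and 73 captured cells for the 24 h runs, of which 60 and 72 have a column. Neither the labels nor the methods say whether the runs came from separate cultures or days, and run and culture cannot be told apart. There is 1 run on each side of the comparison, so cells were not used as replicates, and unless a test is named the values below are descriptions of these captures.

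ATAC-seq reads open chromatin through Tn5 transposase, which cuts and tags DNA where nucleosomes are absent. In a single cell each region offers only its few allelic copies, so most regions give no fragment in any one cell. Open regions of a B-cell precursor fall mainly into start sites of active genes, many of which are CpG islands and are open in most cell types, and enhancers in introns or between genes, which are more specific to the cell type. Ikaros is a zinc finger transcription factor of lymphocytes that binds a GGGAA core and, in pre-B cells, lowers proliferation and the pre-B cell receptor program.

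Run 1 held 122586 counts and run 2 held 142611, with 1839.5 and 1676 counts in the median cell. Cells ranged from 334 to 7940 counts in run 1 and from 365 to 6045 in run 2. To compare the runs at equal depth, each cell was thinned to 837 counts, the 10th percentile over all cells, which kept 47 cells of run 1 and 63 of run 2, and 48 and 46 of the 0 h runs. At that depth a median of 729 regions was detected per cell in run 1 and 701 in run 2, and 749 and 704 in the 0 h runs. The 2 captures at 24 h shared 42 well names, and the correlation of detected regions between same-named wells (median Pearson r = 0.0472) was like that between differently named wells (0.0493). Of 10 pre-B markers, 8 had a region in the matrix, all of which showed signal in at least 1 thinned cell of the 4 runs, whereas fibroblast and epithelial markers had none of 10, myeloid markers 2, erythroid and megakaryocyte markers 3, and T and NK markers 5. The summed share of a cell's counts was 0.180% in 24 h run 1 and 0.154% in run 2 over the 30 regions of pre-B markers, 0.033% and 0.021% over 8 regions of T and NK markers, 0.0381% and 0.0322% over 4 of erythroid and megakaryocyte markers, and 0.00763% and 0.00759% over 5 of myeloid markers. These sums cover unequal numbers of regions, and per region the erythroid and megakaryocyte list was above the pre-B list.

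To show what kind of sequence stood at the top of each direction, regions were printed by a fixed rule. Of the 10 regions per direction with the largest difference in the share of thinned cells, the first 3 on each side that occur once in the genome and have at least 30 bases outside annotated exons are given, as that part. Bases follow the plus strand of mm10, and the deposited start was read as counted from 1. Capitals mark GGGAA, the Ikaros core, and CGGAAG, a core of ETS-family factors, on either strand. The 2 motifs overlap in the Kars promoter. GGGAA occurs in 35.6% and CGGAAG in 16% of all 20103 regions, so a match describes a sequence and does not mark a bound site.
Oaz1 promoter, more cells in run 2, chr10:80826381-80826531: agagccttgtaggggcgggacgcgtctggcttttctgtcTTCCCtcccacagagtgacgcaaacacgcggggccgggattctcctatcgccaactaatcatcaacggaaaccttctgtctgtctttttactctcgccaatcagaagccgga
Kars promoter, more cells in run 2, chr8:112011324-112011397: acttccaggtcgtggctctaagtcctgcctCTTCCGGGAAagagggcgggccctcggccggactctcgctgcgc
Rpusd1 promoter, more cells in run 2, chr17:25727498-25727641: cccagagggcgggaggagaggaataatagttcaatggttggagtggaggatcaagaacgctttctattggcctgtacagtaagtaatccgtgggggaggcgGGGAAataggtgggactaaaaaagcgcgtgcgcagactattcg
Abhd2 promoter, more cells in run 1, chr7:79273036-79273163: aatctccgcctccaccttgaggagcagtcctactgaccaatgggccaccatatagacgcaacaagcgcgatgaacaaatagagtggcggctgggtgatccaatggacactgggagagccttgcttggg
Cytip intron, more cells in run 1, chr2:58153868-58154016: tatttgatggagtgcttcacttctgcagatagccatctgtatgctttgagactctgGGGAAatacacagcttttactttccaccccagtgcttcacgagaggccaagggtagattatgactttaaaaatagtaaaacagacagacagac
Intergenic region nearest Hdhd5, more cells in run 1, chr6:120567589-120567763: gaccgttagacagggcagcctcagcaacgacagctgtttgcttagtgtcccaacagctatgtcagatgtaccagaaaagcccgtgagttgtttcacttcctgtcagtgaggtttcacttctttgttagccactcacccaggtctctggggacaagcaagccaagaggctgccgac
The 3 sequences with more cells in run 2 hold 11, 7 and 8 CpG dinucleotides in 151, 74 and 144 bases. The 3 with more cells in run 1 hold 5, 1 and 4 in 128, 149 and 175 bases. These are 6 sequences chosen for their differences, and CpG content over all regions follows the genomic classes.

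Run 2 carried more of its signal at start sites than run 1. Within 1 kb of a protein-coding start site lay 65.9% ± 6.57 (SD over 47 cells) of the thinned counts in run 1 and 73.9% ± 6.24 (SD over 63 cells) in run 2. The 0 h runs lay at 58% ± 5.08 (SD over 48 cells) and 54.7% ± 5.23 (SD over 46 cells), where start-site regions are 50.2% of all regions. Run 2 minus run 1 was 7.95 percentage points at 24 h and -3.26 at 0 h. Run 1 at 24 h therefore lay between the mean of the 0 h runs and run 2, at 0.546 of the distance.

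The regions away from start sites made up the difference. Introns held 13.6% of the signal in run 1 and 9.56% in run 2, against 18.3% and 19.8% in the 0 h runs, which put run 1 at 0.576 of the way. Regions between genes but within 50 kb of a start site held 12.9% and 11%, against 14.6% and 15.4% at 0 h (position 0.515). Those farther than 50 kb held 6.04% and 4.53%, against 7.43% and 8.27% (position 0.544). Exonic regions away from start sites held 1.5% and 1.02%, against 1.66% and 1.82% (position 0.330). In each of the 5 classes run 1 at 24 h was between both 0 h runs and run 2.

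Single cells showed the same order with wide overlap. The start-site share ran from 55.1% to 84.3% over the cells of run 1 with a median of 64.3%, and from 58.3% to 84.0% in run 2 with a median of 76.2%. The middle 50% of cells spanned 61.2% to 70.2% in run 1 and 68.9% to 78.9% in run 2. Of the run 1 cells, 3 of 47 lay above the median of run 2, and 5 of 63 run 2 cells lay below the median of run 1. Over all pairs of 1 cell from each run, the run 2 cell had the higher share in 81.5%. A run 1 cell at 24 h lay above a 0 h cell in 90.4% of pairs, and a cell of 0 h run 1 lay above one of 0 h run 2 in 72.1%. One cell in each 0 h run stood apart from the others of its run, at 80.5% and 80.8%, where the next highest were at 68% and 60.2%.

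**Figure D1:**
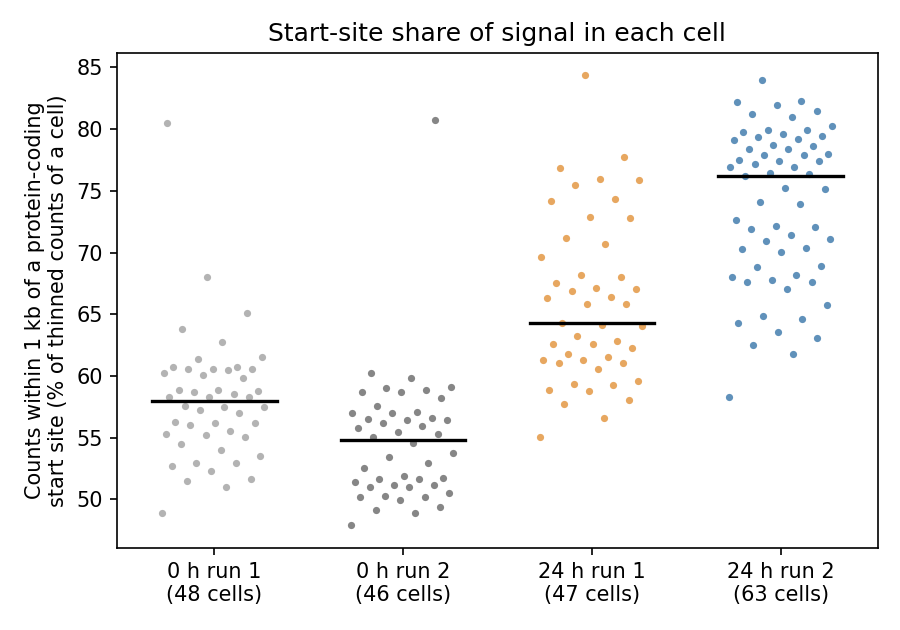
Share of each cell's thinned counts within 1 kb of a protein-coding start site (vertical axis, percent), with 1 point per cell and a line at the median of each capture (horizontal axis). Medians are 57.9% and 54.8% in the 0 h runs, 64.3% in 24 h run 1 and 76.2% in 24 h run 2, and the cells of neighbouring runs overlap.

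Depth moved with this share at 24 h. Without thinning, the 30 shallower cells of run 1 had a mean start-site share of 70.8% and the 30 deeper cells 63.7%, and in run 2 the 36 shallower and 36 deeper cells had 75.8% and 73.1%. In the 0 h runs the shallower and deeper cells had 58.1% and 57.9%, and 53.9% and 56.1%. Run 2 minus run 1 was thus 4.97 percentage points among the shallower and 9.45 among the deeper cells. Among thinned cells at or above the median depth of their run it was 9.13. The part of depth in the difference was not tested.

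The CpG content of a region followed the difference between captures inside and outside start sites. Regions were split into quintiles by their ratio of observed to expected CpG, a measure that is high in CpG islands. The lowest quintile took 12.2% of the signal in run 1 and 8.21% in run 2, and the highest quintile 25.7% and 30.7%. The 0 h runs had 16.3% and 18.2% in the lowest quintile and 20.8% and 18.4% in the highest. Counting only regions beyond 1 kb of a start site, the highest quintile (294 regions) held 4.72% of that signal in run 1 and 8.03% in run 2, against 2.92% and 2.63% at 0 h. Counting only regions near start sites, the lowest quintile (369 regions) held 1.78% in run 1 and 1.17% in run 2, against 2.59% and 3.09%. The cause of these differences was not tested.

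**Figure D2:**
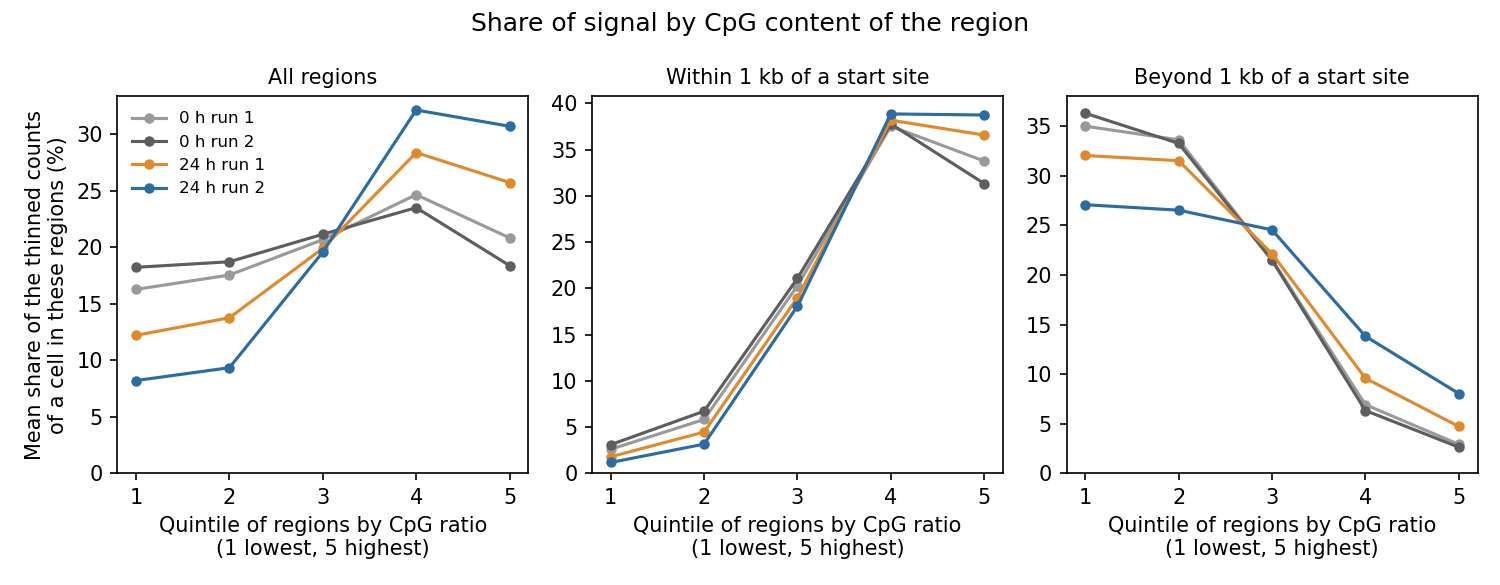
Mean share of signal (vertical axis, percent) in each quintile of regions by CpG ratio (horizontal axis, 1 lowest to 5 highest), with 1 line per capture. For all regions it is the share of a cell's thinned counts. In the panels near and away from start sites it is the share of the cell's counts in those regions only. The line of 24 h run 1 lies between the 0 h runs and run 2 in the lowest and highest quintile of each panel, as at 4.72% between 2.92% and 8.03% in the highest quintile away from start sites.

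GC content and CpG content are linked, so each was also split within quintiles of the other, a step added after the data were seen. Within the third quintile by GC content (55.4% to 61.3% GC), the regions with a CpG ratio above their median held 64% of that quintile's signal in run 1 and 74.5% in run 2, and 58% and 55.7% in the 0 h runs. Over all 5 GC quintiles the difference between the captures ran from 0.5 to 10.5 percentage points, always toward the CpG-richer regions in run 2. The CpG-richer regions were also more often at start sites, with 70.8% against 16.3% in the third GC quintile, 37% against 9.92% in the second and 94.9% against 87.5% in the fifth, where the difference was 0.5 points, so this split does not separate CpG content from start sites. Within quintiles by CpG ratio, the share of the GC-richer regions differed by -0.8 to 4.5 percentage points. Within the lowest 3 GC quintiles the start-site share was also higher in run 2, at 28.6% against 22.3%, 46.9% against 38.6% and 68.3% against 60.03%. In the highest GC quintile, where nearly all regions are at start sites, it was 93.0% against 93.1%.

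In percentage points, regions with any 1 of the motifs searched differed less between the captures than the CpG quintiles at either end. Regions with GGGAA held 35.5% of the signal in run 1 and 35.3% in run 2, and 36.6% and 37% in the 0 h runs. Regions with CGGAAG held 21% and 23.2%, against 18.8% and 17.9%, and near start sites alone they held 27.5% and 27.9% of that signal. Of the signal away from start sites they held 8.27% and 10.02%, against 8.06% and 7.59% at 0 h. That signal itself shrank, and as a share of all counts these regions held 2.78% and 2.55%, against 3.40% and 3.41% at 0 h. Regions with the AP-1 core TGANTCA held 2.83% in run 1 and 2.26% in run 2 against 3.44% and 3.62% at 0 h, which as a ratio between the 24 h captures is a log2 of -0.32. Regions with the E-box CACCTG held 7.58% and 7.24%, those with the forkhead core TGTTTAC 1.28% and 1.24%, and those with a CTCF-like core 1.76% and 1.68%. Of regions resembling other genomes or repeats, 27 that match the mitochondrial genome held 0.867% and 0.889%, and 5 that match ribosomal RNA held 0.122% and 0.214%, against 0.030% and 0.018% in the 0 h runs.

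Few single regions separated the captures by a test. The only replicated pair is that of the 0 h runs, so the spread between them (a biological coefficient of variation of 0.293, 1 residual degree of freedom shared over regions) was applied to sums of counts per run, with each 24 h run assumed to vary like a 0 h run. By the quasi-likelihood test of edgeR, adjusted after Benjamini-Hochberg, 7 of 20103 regions (0.0348%) were higher in run 2 and 1 (0.00497%) was higher in run 1. At an unadjusted p of 0.05 the counts were 930 and 1004, and DESeq2 called 0 and 0 after adjustment and 51 and 67 before. Scaled by run totals in place of TMM, edgeR called 9 and 7, with values reduced to detected or not it called 21 and 6, and on thinned counts 0 and 0. Among regions detected in at least 10% of cells it called 12 higher and 21 lower in run 2, so the balance of directions turned. Against the 0 h runs, the same fit called 7 regions higher (0.0348%) and 1 lower (0.00497%) in run 1, and 400 higher (1.99%) and 237 lower (1.18%) in run 2. Of the run 2 calls, 55 of the 400 and 143 of the 237 have signal in fewer than 5 cells outside the runs in which they are higher. The same holds for 2 of the 7 regions higher in run 1 and for the 1 lower. The values of all these regions are a description. The counts for run 2 were 702 and 256 from detected or not, 194 and 216 for regions in at least 10% of cells, 125 and 30 at an adjusted p of 0.01, and 0 and 0 on thinned counts. Both contrasts share the 0 h runs, and DESeq2 called 0 in each direction of each.

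The 8 regions that passed between the captures fall outside the naming rule and were chosen because they passed, after their values were seen. All had signal in 7 to 11 thinned cells of one capture and in none of the other. Every region of the deposited matrix has signal in at least 5 of the 227 cells, and outside run 2 the regions of Atg7, Csf2ra and Glyctk had it in 4, 3 and 1 cells. These 3 reach 5 cells only through the run in which they are higher, so their values are a description, and 4 calls toward run 2 and 1 toward run 1 are left without them. Atg7, the E1-like enzyme of autophagy, had signal at its start site in 11 of 63 thinned cells of run 2 and 0 of 47 of run 1, which allows a share of up to 6.38%, and in 2 of 48 and 0 of 46 at 0 h. Before thinning it had 33 counts in run 2 and 0 in run 1. At the start site of Slc12a4, a potassium-chloride cotransporter, run 2 had 9 of 63 cells and run 1 had 0 of 47, with 3 of 48 and 1 of 46 at 0 h (adjusted p = 0.0334 by edgeR, at least 8.31-fold higher in run 2 with a floor of 3 counts per run). At that of Hmgxb3 it was 8 of 63 cells against 0 of 47 (edgeR adjusted p = 0.0334, at least 8.02-fold higher). Tbc1d7, a subunit of the TSC complex that restrains mTORC1, had 9 of 63 cells against 0 of 47, and 35 counts against 1 before thinning, a ratio of 30.1 (95% counting interval 5.06 to 1222; edgeR adjusted p = 0.0380).

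Of the other 4 called regions, 3 lie away from start sites. The region 1.96 kb from the start of Glyctk, a glycerate kinase, had signal in 10 of 63 cells of run 2 and in none of the thinned cells of the other 3 runs. An intronic region nearest Apoh had 10 of 63 cells against 0 of 47 (edgeR adjusted p = 0.0485). One nearest Csf2ra, which has 2 copies in the genome, had 7 of 63 against 0 of 47. In the other direction, Gemin8 on chromosome X, a component of the SMN complex that assembles spliceosomal particles, had signal at its start site in 7 of 47 cells of run 1 and 0 of 63 of run 2, which allows up to 4.76% (edgeR adjusted p = 0.0485, at least 8.53-fold lower in run 2). In the 0 h runs it had 0 of 48 and 2 of 46 cells.

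By share of cells rather than by test, 109 regions (0.542%) had signal in at least 15 percentage points more thinned cells of run 2 than of run 1, and 21 (0.104%) in at least 15 points fewer. Between the 0 h runs the counts were 44 (0.219%) and 10 (0.0497%), with run 2 the higher in 44. Of the 109, 84 (77.1%) lie within 1 kb of a start site, against 11 (52.4%) of the 21 and 50.2% of all regions. One draw of 837 counts adds noise to such shares. Taking the expected share over all possible draws, 60 regions (0.298%) were at least 15 points higher in run 2 and 4 (0.0199%) lower, with 22 (0.109%) and 0 between the 0 h runs.

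**Figure D3:**
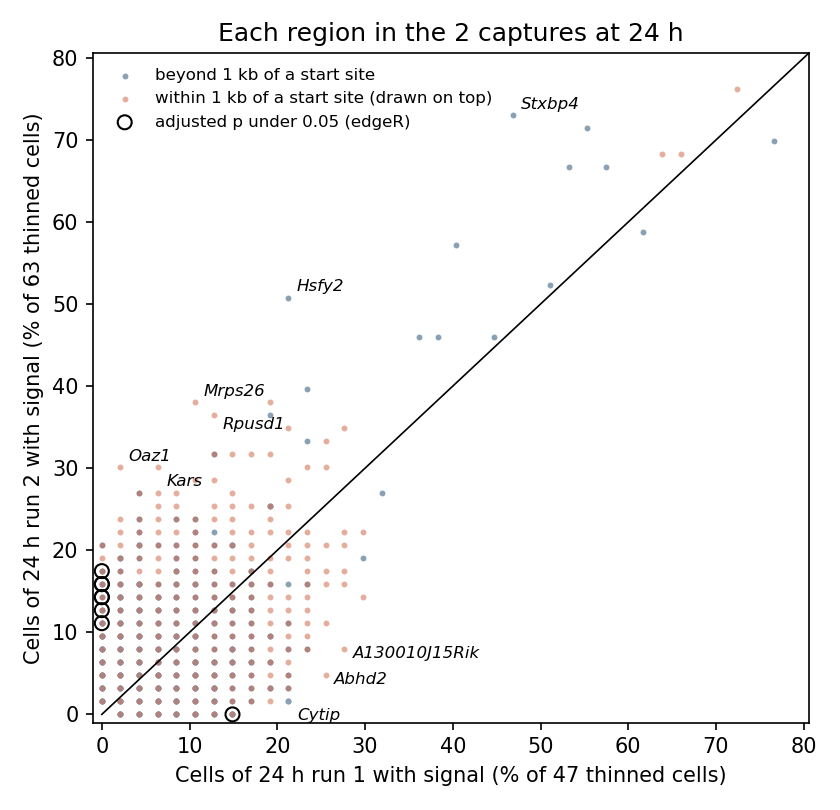
Percent of thinned cells with signal in 24 h run 1 (horizontal axis, 47 cells) and run 2 (vertical axis, 63 cells), with 1 point per pair of shares that any region takes, a line of equal shares, and circles around the 8 regions with an edgeR adjusted p under 0.05. The circled regions sit at 0 in 1 run, some at the same point, and of the named regions Mrps26 lies at 10.6% and 38.1% and Abhd2 at 25.5% and 4.76%.

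The 10 regions with the largest difference toward run 2 included 7 start sites. None of the 10 passed the test between the captures. Mrps26, a protein of the small mitochondrial ribosomal subunit, had signal in 5 of 47 cells of run 1 (10.6%, exact 95% interval 3.55% to 23.1%) and 24 of 63 of run 2 (38.1%, 26.1% to 51.2%), and in 2 of 48 and 3 of 46 at 0 h. Over all draws its expected shares were 6.14% and 31%, and the log2 difference was 2.19 (SE 0.65, edgeR adjusted p = 0.159). Kars, the lysyl-tRNA synthetase, had 3 of 47 (6.38%) and 19 of 63 (30.2%), with expected shares of 7.28% and 30.1%, and 1 of 48 and 0 of 46 at 0 h. Both were chosen for the size of this difference, so the intervals give the counting error and no test. At Mrps26 the expected share of run 1 was close to the 6.11% and 6.32% of the 0 h runs.

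The other start sites toward run 2 ranked partly by the draw. Rpusd1, a member of the pseudouridine synthase family, had 6 of 47 and 23 of 63 cells, with expected shares of 10.8% and 32.3%. Yipf5, a membrane protein of the early secretory pathway, had 2 of 47 and 17 of 63, with expected shares of 6.05% and 24.2%. For Zfyve16, an endosomal FYVE-domain protein, the cells were 2 of 47 and 17 of 63, and the expected shares 11.7% and 26.5%. Actl6a, an actin-related subunit of BAF chromatin remodelling complexes, had 3 of 47 and 19 of 63, with expected shares of 10.8% and 22.2%. Oaz1, the antizyme that lowers ornithine decarboxylase and with it polyamine synthesis, had 1 of 47 and 19 of 63, but expected shares of 8.32% and 21.5%. For Rpusd1 and Actl6a the expected share of run 1 was within 3 points of those of both 0 h runs, at 10.2% and 13.5% for Rpusd1 and 11% and 8.91% for Actl6a.

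Of the 10, 3 lie away from start sites. A region 23.9 kb from the start of Elp6, which encodes a subunit of Elongator, had signal in 2 of 47 and 17 of 63 cells, and in 1 of 48 and 0 of 46 at 0 h. A region 145 kb from Hsfy2, the nearest gene, that matches ribosomal RNA and has 2 genome copies had 10 of 47 and 32 of 63, against 3 of 48 and 3 of 46, with expected shares of 26.1% and 42.8% at 24 h. A region in an intron of Stxbp4 that matches the mitochondrial genome, with 3 genome copies, had 22 of 47 and 46 of 63 in the draw, but expected shares of 58.7% and 62.5%, so that its rank rests on the draw alone.

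Toward run 1 the differences were smaller. Cytip, which encodes a cytohesin-interacting protein of lymphocytes, had an intronic region with signal in 10 of 47 cells of run 1 (21.3%, exact 95% interval 10.7% to 35.7%) and 1 of 63 of run 2 (1.59%, 0.0402% to 8.53%), with 2 of 48 and 1 of 46 at 0 h (log2 difference -3.64, SE 1.00, edgeR adjusted p = 0.111). A region 36.4 kb from the start of Hdhd5 also had 10 of 47 and 1 of 63, against 5 of 48 and 3 of 46 (edgeR adjusted p = 0.118). At the start site of Topbp1, which activates the ATR checkpoint kinase, 9 of 47 and 1 of 63 cells had signal, against 2 of 48 and 1 of 46. At these 3 regions run 1 at 24 h was above both 0 h runs and run 2 was not.

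At Abhd2 and Nutf2 run 1 was within the range of the 0 h runs or near it and run 2 was lower. The start site of Abhd2, a lipid hydrolase, had 12 of 47 cells in run 1 and 3 of 63 in run 2, against 7 of 48 and 12 of 46 at 0 h. Nutf2, which carries Ran into the nucleus, had 9 of 47 and 1 of 63, against 7 of 48 and 12 of 46. At Kdm2b, a demethylase that binds CpG islands, it was 10 of 47 and 2 of 63, against 5 of 48 and 1 of 46. A region 51.9 kb from Golim4 had 10 of 47 and 2 of 63, against 0 of 48 and 2 of 46, so that run 1 was the highest of the 4 runs at both. The remaining 3 of the 10 were A130010J15Rik (13 of 47 and 5 of 63), a region 9.36 kb from the lipid desaturase gene Scd2 (10 of 47 and 3 of 63) and Ccnt2, a cyclin of the elongation factor P-TEFb (10 of 47 and 3 of 63). Over all draws most of these differences were smaller. The expected shares were 17.6% and 6.07% for Abhd2, 13.3% and 4.89% for Nutf2, 15.6% and 4.57% for Kdm2b and 12.9% and 1.00% for Golim4. They were 20.1% and 7.64% for A130010J15Rik, 15.6% and 7.90% for Scd2 and 13.2% and 6.39% for Ccnt2. None of the 10 toward run 1 passed the test.

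Whether run 1 lies on the way from 0 h to run 2 was also read over many regions at once. The 500 regions with the largest gain and the 500 with the largest loss in share of cells were chosen from the odd-numbered cells of run 2 against 0 h run 1. Each remaining cell was then scored by the percent of its counts in the gained regions minus that in the lost ones. The score averaged -0.37 percentage points in 0 h run 2 (46 cells), 2.02 in 24 h run 1 (47 cells) and 6.99 in the held-out cells of 24 h run 2 (32 cells), which put run 1 at 0.324 of the distance. Over the gained regions alone run 1 was at 0.199, and over the lost regions at 0.619. Of the gained regions 82.6% were at start sites, and of the lost regions 49.6%.

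The cells of run 1 were spread along this axis. Scores of run 1 ran from -1.19 to 7.89 with a median of 1.79, those of 0 h run 2 from -2.63 to 3.23, and those of held-out run 2 cells from -0.72 to 10.3 with a median of 7.29. Of 47 run 1 cells, 42 lay above the 0 h median, 14 above the highest 0 h cell, 2 above the lower quartile of the held-out run 2 cells and 1 above their median. The upper quartile of run 1 (3.41) was below the lower quartile of the held-out run 2 cells (5.35).

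The axis set by run 1 gave another answer. With the 500 regions each way chosen from odd-numbered cells of run 1 against 0 h run 1, the score averaged -0.70 in 0 h run 2, 2.18 in the 25 held-out cells of run 1 and 2.31 in the 63 cells of run 2, a position of 1.05 for run 2. Over the gained regions run 2 was at 1.35 and over the lost ones at 0.733. Of the 63 run 2 cells, 63 lay above the 0 h median, 31 above the highest 0 h cell and 34 above the median of the held-out run 1 cells. On regions chosen by run 1 both captures thus had scores of similar mean, whereas on regions chosen by run 2 the mean of run 1 was nearer to 0 h than to run 2. On regions near start sites only, run 1 was at 0.217 of the run 2 axis, and on regions beyond 1 kb at 0.475.

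**Figure D4:**
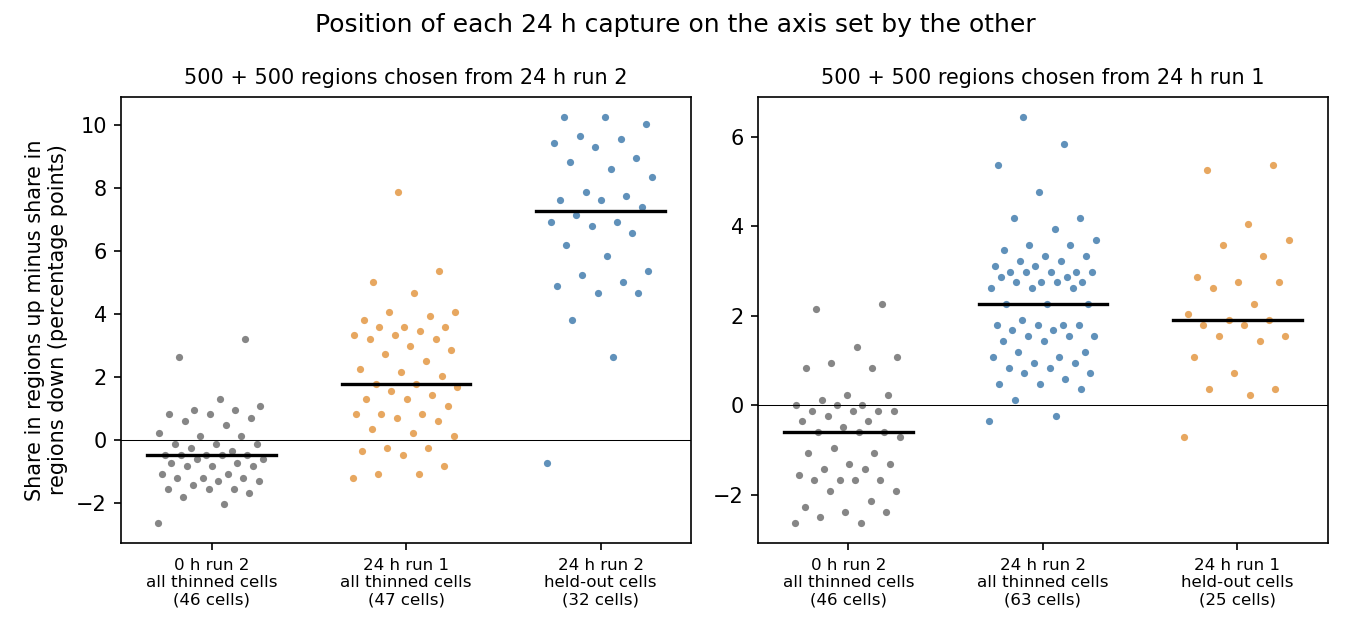
Score of each cell (vertical axis, percentage points), the share of its thinned counts in 500 gained regions minus that in 500 lost regions, with 1 point per cell and a line at the median. On the left the regions were chosen from 24 h run 2 and the medians are -0.48, 1.79 and 7.29. On the right they were chosen from 24 h run 1 and run 2 has a median of 2.27 against 1.91 in the held-out cells of run 1.

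Across 20103 regions, the Pearson correlation of the share of thinned cells was 0.547 between the 24 h captures and 0.485 between the 0 h captures. Run 1 at 24 h correlated at 0.428 and 0.422 with the 0 h runs, and run 2 at 0.406 and 0.389. Regions are not independent points, and each run's own depth and cell number enters every value.

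Gene lists were described by the share of a cell's thinned counts in all regions assigned to their genes, beside all regions near start sites, which were higher in run 2 by a log2 of 0.16, and all regions away from them, lower by a log2 of -0.38. The share was larger in run 2 for 8 of 16 lists, and for 11 of 16 when only regions near start sites were counted. No region of any list was among the 8 called between the captures. Beside the list values stand those of the 0 h pair, which give the size of a difference between captures of one time-point without 4OHT.

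The lists of ribosomal proteins, the proteasome and DNA replication took a larger share of the signal in run 2. Regions of cytosolic ribosomal proteins (67 genes, 92 regions) held 0.526% of the signal in run 1 and 0.666% in run 2, a log2 ratio of 0.34, against 0.443% and 0.413% at 0 h. Of these regions 47 of 92 were higher in run 2 by the fitted log2 difference (51.1%), against 43.3% of all regions. Near start sites, where 70 of the 92 lie, 41 of 70 were higher (58.6%), against 53% of all regions there. At the start site of Rps15 the expected share was 2.28% of run 1 cells and 17.5% of run 2 cells (edgeR adjusted p = 0.18). Proteasome genes (40 genes, 61 regions) held 0.285% and 0.379% (log2 0.41, 0 h pair -0.17), with Psmd11, a lid subunit, at 4.26% and 19% of thinned cells. Of its regions 27 of 61 were higher in run 2 (44.3%, against 43.3% of all regions), and near start sites 20 of 39 (51.3%, against 53% there), so that by count the list was near the background. DNA replication genes held 0.297% and 0.345% (log2 0.21, 0 h pair -0.05), with Gins2 of the CMG helicase at 17% and 31.7% of cells, and Pold3, a subunit of polymerase delta, at 8.51% and 0%. For these 3 lists the captures at 24 h differed by more than those at 0 h, and run 1 lay at 0.413, 0.275 and 0.445 of the way from 0 h to run 2.

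Several lists differed between the 24 h captures by about as much as between the 0 h captures, or by less. The IL-7 receptor, JAK-STAT and SOCS list had a log2 ratio of 0.39 at 24 h and 0.38 at 0 h. Within it Stat3, a transcription factor of cytokine signalling, had signal at its start site in 4.26% of run 1 and 20.6% of run 2 cells, against 4.17% and 10.9% at 0 h. Replication-dependent histones had a log2 of 0.31 and 0.28, with Hist1h2ai at 0% and 19% of cells in the draw and expected shares of 4.57% and 19.5%. Oxidative phosphorylation had 0.19 and 0.23, with Sdhc, a subunit of complex II, at 2.13% and 14.3%. Antigen presentation had -0.16 and -0.65, and B-lineage transcription factors -0.18 and -0.16, the former being 0.14 near start sites alone. Among zinc finger proteins (246 genes, 388 regions) the log2 was 0.04 and 0.02, while single members differed, as Zfp263 at 0% and 20.6% of thinned cells (edgeR adjusted p = 0.07).

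Of the lists that were lower in run 2, the pre-B cell receptor and its signalling differed by the most. Its 47 regions, of 12 genes, held 0.208% of the signal in run 1 and 0.119% in run 2, a log2 of -0.80, against 0.241% and 0.203% at 0 h (log2 -0.25). Of the 47 regions 13 were higher in run 2 (27.7%), against 43.3% of all regions. Near start sites it was 3 of 12 (25%), against 53% of all regions there. The other 35 lie away from start sites, where 33.7% of all regions were higher. Run 1 stood at 0.132 of the way from the 0 h mean to run 2, and its share lay between those of the 0 h runs. Its regions near start sites alone had a log2 of -0.36. The region nearest Igll1, the lambda5 chain of the surrogate light chain, had signal in 8.33% and 2.17% of thinned cells at 0 h and in 0% of both 24 h captures in the draw. Before thinning it had 5 counts in 3 of the 60 run 1 cells and none in the 72 run 2 cells. For Vpreb1, the other surrogate light chain gene, the shares were 6.25% and 15.2% at 0 h, 4.26% in 24 h run 1 and 0% in run 2. The regions of both genes reach 5 cells in the matrix only through the 0 h runs, so their lower values at 24 h are a description. Cd79a, a signalling chain of the receptor, had 14.6% and 8.70% at 0 h, then 6.38% and 3.17%, with expected shares of 4.44% and 2.55%. The start site of Cd79b, the partner chain, had 2.08% and 8.70%, then 10.6% and 1.59%, with expected shares of 6.34% and 8.68%, then 9.73% and 2.74%. A Blnk intron, in the gene of the adaptor, had 0% and 2.17%, then 19.1% and 9.52%. At the 24 h captures these low shares overlap within counting error, since 0 of 47 cells allows up to 6.38%.

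The lists of regulators, cyclins and immediate early genes were slightly lower in run 2, while single members differed in both directions. The start site of Ebf1, a factor that specifies B cells, had signal in 8.51% of run 1 and 20.6% of run 2 cells, against 4.17% and 4.35% at 0 h, and its expected shares at 24 h were 9.01% and 16.7%. A Mef2c intron had 21.3% and 11.1% in the draw but expected shares of 11.5% and 12.7%, and the start site of Hbp1 had 27.7% and 15.9% but 18.7% and 17.3%, so the differences of the single draw were largely absent from the average over draws. The 10 regulators of the study's network together had a log2 of -0.14 (0 h pair -0.07), which was 0.010 near start sites alone. G1 cyclins, CDKs and inhibitors had -0.13 (0 h pair 0.06), with the start site of Ccne1 (cyclin E1) at 14.9% and 4.76% and a region 8.18 kb from Cdkn1b (the inhibitor p27) at 2.13% and 11.1%. Immediate early and heat shock genes had -0.08 (0 h pair -0.22), or 0.048 near start sites alone, with Dusp2 at 10.6% and 22.2% in the draw but expected shares of 10.2% and 17.4%, and 13.3% and 5.54% at 0 h.

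For p53 targets the log2 was -0.23 (0 h pair 0.06), with Gadd45a at 6.38% and 19% and Zmat3 at 10.6% and 1.59% of cells. Aminoacyl-tRNA synthetases had -0.28 (0 h pair -0.10) although Kars was among the regions highest in run 2, and Qars, the glutaminyl-tRNA synthetase, had 21.3% and 7.94%, with expected shares of 14.1% and 9.04%. Glucose uptake and glycolysis had 0.25 (0 h pair 0.06), with the glucose transporter gene Slc2a1 at expected shares of 0.923% and 10.2% (5% and 2.95% at 0 h) and the glycolytic gene Pgk1 at 6.69% and 13.8% (5.65% and 11.1% at 0 h). In the fit of regions against 0 h, 7 of 388 regions of zinc finger proteins (1.80%) were called higher in run 2, 6 of 52 of histones (11.5%), and 3 each of ribosomal proteins (3.26%), the proteasome (4.92%) and oxidative phosphorylation (3.85%). Among all regions 1.99% were called so, with 3.09% near start sites, where most regions of these 5 lists lie, and 0.879% away from them, so that the zinc finger, ribosomal and oxidative phosphorylation shares were near that background. Run 1 had 0 calls in these 5 lists (0.0348% of all regions).

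**Figure D5:**
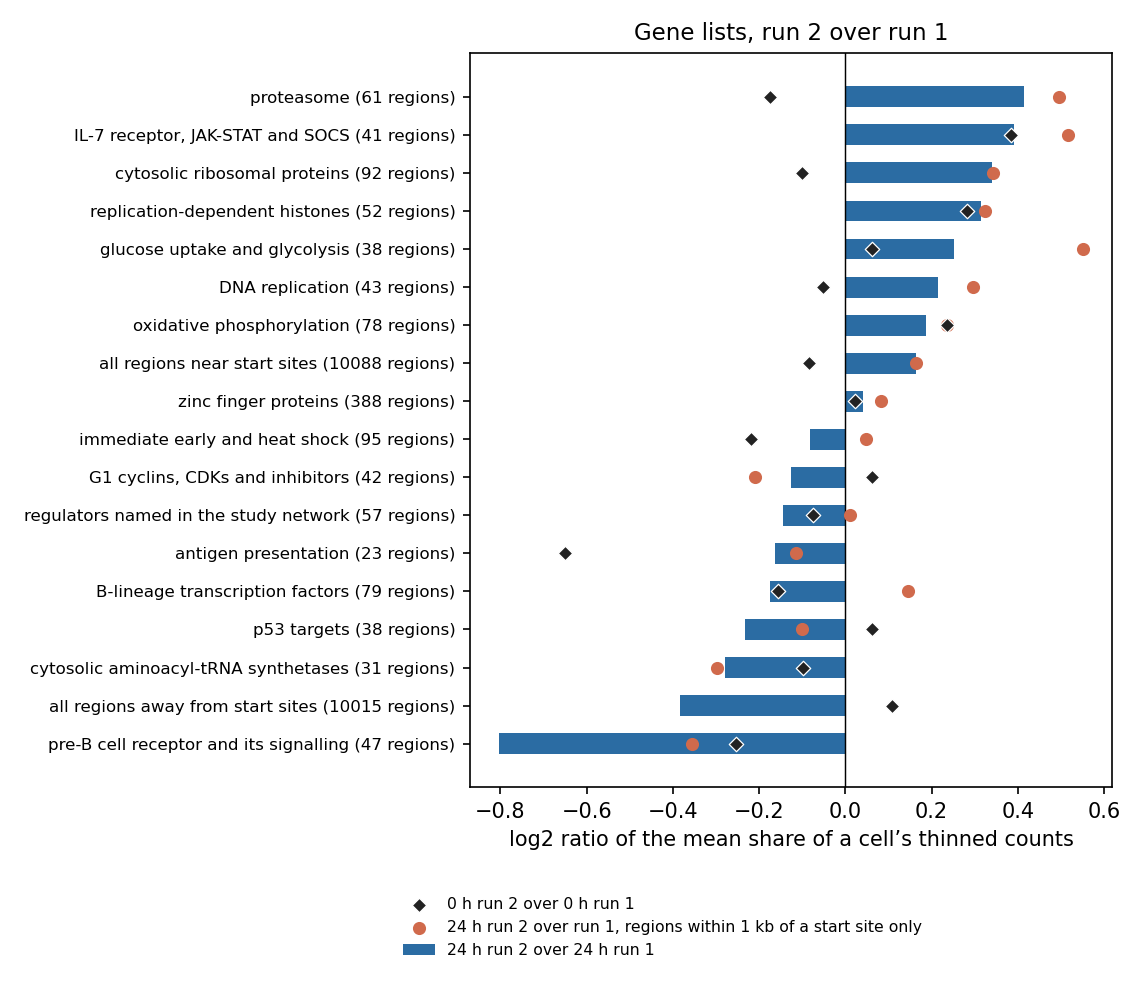
Log2 ratio of the mean share of a cell's thinned counts (horizontal axis) in the regions of each gene list, as bars for 24 h run 2 over run 1, diamonds for the 0 h pair and circles for the 24 h pair using only regions within 1 kb of a start site. The pre-B cell receptor list lies at -0.80 and the proteasome list at 0.41, and for several lists, such as that of IL-7 receptor signalling (0.39 and 0.38), the 0 h pair differed as much.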

How the data were processed

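Single-cell ATAC-seq was measured in B3 cells in 2 C1 runs at each of 0 and 24 hours. The submitters' processing notes name Bowtie, Picard, HOMER and mm10. The authors mapped reads, removed duplicate fragments, called peaks on bulk samples and deposited whole-number counts of each cell in those peaks, without normalization. No value is above 2, and the sources used here do not give whether larger values were capped. All 227 columns were mapped to a run and 0 were left out. The bulk samples are not analysed here.

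The 4 runs summed to 164357, 92639, 122586 and 142611 counts. Cells were thinned to 837 counts without replacement in 1 seeded draw, which left out 23 shallower cells. Expected shares over all draws were computed from the hypergeometric distribution, an alternative added after the data were seen. Shares of cells carry exact Clopper-Pearson intervals at 95%, and a count of 0 is given with the limit of 3 counts, both covering counting error only. Sums per run went into edgeR 4.0.16 under R 4.3.3 (quasi-likelihood, TMM, Benjamini-Hochberg, threshold 0.05) in a fit with the levels 0 h, 24 h run 1 and 24 h run 2, with DESeq2 1.42.0 as an alternative, after a check on simulated data. Other values were computed in NumPy 2.4.6 and SciPy 1.17.1. Doublets were not called, since each capture site was inspected by eye.

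Regions were classed by their midpoint against every protein-coding transcript start of GENCODE vM21 and named by the gene with the nearest start, which for the gene lists had to lie within 50 kb. BLAST 2.17.0 gave genome copies (90% identity over 80% of a region) and mitochondrial matches (E-value 1e-05). Named were the 10 regions per direction with the largest difference in share of thinned cells, 2 regions per gene list and the pre-B markers. The regions, gene lists and comparisons were chosen with earlier results of these data known. Alternatives were other thinning depths and seeds, start site windows, normalizations, filters and numbers of axis regions.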

Additional observations from a re-analysis of the deposited data

How the results depend on the processing

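No paired analysis was possible because the run number is itself the contrast and the labels do not tie run 1 and run 2 of the time-points to shared cultures. Leaving out either 0 h run was not possible with a test, since no residual degree of freedom is left. The difference in start-site share kept its direction, from 7.21 to 9.13 percentage points over the alternatives run, and was 4.97 and 9.45 among shallower and deeper cells without thinning. With a 2 kb window the exon difference was -0.365, and counting all annotated genes those between genes were -2.88 near and -0.289 far. The ratio of regions detected per cell was 0.899 without thinning. The difference in the highest CpG quintile was 2.17 percentage points of the signal near start sites alone.

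The position of run 1 on the run 2 axis lay from 0.217 to 0.475. It was 0.354 and 0.358 with 200 and 1000 regions each way, 0.374 with even cells choosing, 0.326 with the 0 h runs exchanged, 0.403 without thinning, 0.384 at the 25th percentile, 0.346 for regions in at least 10% of cells, 0.308 without mitochondrial or ribosomal matches, 0.217 near and 0.475 away from start sites, and 0.266 in deeper cells. The position of run 2 on the run 1 axis was 1.15, 0.997, 1.17, 1.03, 0.702, 1.01, 1.05, 1.00, 0.948, 0.919 and 0.963 in the same order.

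Calls higher and lower in run 2 than run 1 were 9 and 7 with run totals, 21 and 6 from detected or not, 12 and 21 for regions in at least 10% of cells, and 0 and 0 with DESeq2, thinned counts or a threshold of 0.01. For run 1 against 0 h they were 5 and 0 from detected or not, 4 and 3 for regions in at least 10% of cells, 2 and 0 at 0.01, and 0 and 0 with DESeq2 or thinned counts. For run 2 against 0 h they were 702 from detected or not (higher), 194 in regions in at least 10% of cells (higher), 125 and 30 at 0.01, and 0 and 0 with DESeq2 or thinned counts. Over all draws, 60 and 4 regions were 15 points apart.

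Directions turned for the Stxbp4 region (-3.06 points without thinning, -6.18 with another seed), for B-lineage factors (log2 0.14), network regulators (0.010) and immediate early genes (0.048) near start sites, and for the last without thinning (0.054). As a share of the signal beyond 1 kb only, they turned for GC quintile 3 (0.20), CpG quintile 3 (2.40) and width quintile 4 (-0.32). On that measure CACCTG (0.60), TGTTTAC (0.39) and the CTCF-like core (0.60) turned too. As shares of all counts, the regions of each of these sets beyond 1 kb held less in run 2 than in run 1. There GC quintile 3 held 7.97% in run 1 and 6.21% in run 2, and CACCTG 3.45% and 2.79%. Of the signal near start sites only, directions turned for mitochondrial matches (-0.019) and regions with more than 1 copy (-0.52). Without thinning they turned for GGGAA (0.057), mitochondrial matches (-0.078) and more than 1 copy (-0.10). The cause was not tested. Values of at most 2 and 837 counts per thinned cell limit what single regions can show.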

Other observations

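The share of signal per chromosome differed between the captures on a few chromosomes by more than between the 0 h captures. Chromosome 11 held 7.77% of the thinned counts in 24 h run 1 and 8.71% in run 2, against 6.72% and 6.83% in the 0 h runs. Chromosome 13 held 5.43% and 4.85%, against 5.84% and 5.86%. On both, run 1 lay between the 0 h runs and run 2.

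Wide regions followed the same order. The widest quintile of regions, of 150 bases or more, held 34.3% of the signal in both 0 h runs, 38.1% in 24 h run 1 and 41.2% in run 2, and of the signal beyond 1 kb of start sites 22.9% and 23.9%, then 27% and 31.1%. That signal itself shrank, and as a share of all counts the wide regions beyond 1 kb held 9.58% and 10.7% at 0 h, 9.02% in 24 h run 1 and 7.91% in run 2. Regions with more than 1 copy in the genome (609 regions) held 3.78% and 4.75% of all counts at 0 h, 4.51% in 24 h run 1 and 4.54% in run 2.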
